A study of Mus musculus with 22 samples.

Results

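The nuclear genes of the respiratory chain were followed in ribosome-bound RNA of astrocytes and in whole-tissue RNA of the mouse visual cortex. Members were taken by name from the expression table: symbols starting with Ndufa, Ndufb, Ndufc, Ndufs, Ndufv, Uqcr, Cox4 to Cox8 or Atp5, and Sdha, Sdhb, Sdhc, Sdhd and Cyc1, leaving out the assembly factors named Ndufaf and Sdhaf. Such a name was found for 86 of the 24537 genes listed. The 80 with a mean above 1 FPKM over the 16 pulldown libraries are the members; FPKM is fragments scaled for transcript length and for the total of the library. They comprise 35 genes of complex I, 4 of complex II, 9 of complex III, 17 of complex IV and 15 named for complex V. Ndufa4 was counted with complex IV, where its protein sits, in spite of its name. The members closest above the limit were Cox8b at 1.13 FPKM, Cox7c at 1.14 FPKM and Cox7b2 at 1.51 FPKM. The 6 rows at or below it were Ndufab1 (0.60 FPKM), Cox6a2 (0.54 FPKM), Ndufa4l2 (0.24 FPKM), Atp5l (0.11 FPKM), Atp5g2 (0.08 FPKM) and Cox8c, which is listed at 0.

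All mice were C57BL/6J carrying 73.12 GFAP-cre and RPL22-HA, so that cells in which the Gfap promoter drives Cre make ribosomes with an HA epitope on Rpl22, and these can be pulled down with the RNA they hold. The groups were normal rearing (NR, a 12 h light cycle, postnatal day 45, 3 pulldowns), darkness from birth (DR, day 45, 4 pulldowns), 10 days of darkness in the adult (dark10, day 120, 3 pulldowns), and the hemisphere contralateral (3 pulldowns) or ipsilateral (3 pulldowns) to an eye deprived for 2 days at day 28. Each group also had 1 input library, made from tissue RNA before the pulldown. The ages of the groups differ, so dark10 against NR cannot be told apart from day 120 against day 45. In bulk RNA, fewer cells of a type and less RNA per cell cannot be told apart.

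The respiratory chain passes electrons from NADH (complex I) and succinate (complex II) through complex III and cytochrome c to oxygen at complex IV, and complex V uses the resulting proton gradient to make ATP. Most subunits are encoded in the nucleus, translated in the cytosol and imported, while a few core subunits of complexes I, III, IV and V are encoded in mitochondrial DNA. Several subunits of complex IV exist as isoforms from separate genes, of which Cox6a2, Cox7a1 and Cox8b are the heart and skeletal muscle forms, Cox4i2 the form best known from lung, and Cox6b2 the form best known from testis.

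The pulldowns carried astrocyte RNA. All 11 astrocyte markers passed the test as higher than in the inputs (for example Gfap, the astrocyte filament protein, by 3.36 on the log2 scale), and all 14 neuron markers and all 8 microglia markers as lower. Summed neuron markers ran from 283 to 1279 FPKM in the pulldowns and from 3756 to 4286 FPKM in the inputs, with no marker at 0 in all libraries of a group. Oligodendrocyte markers were not depleted: 4 of 6 passed as higher, with sums of 1241 to 3289 FPKM in pulldowns and 955 to 1689 FPKM in inputs. The precursor RNA of the ribosome, Rn45s, ran from 130 to 160 FPKM in 3 pulldowns (NR replicate 3, contralateral replicate 3 and ipsilateral replicate 3) and from 4280 to 31654 FPKM in the other 13. In the inputs it ran from 37.4 to 569 FPKM. Depth, estimated from steps between low values, was 21.2 to 51.4 M reads in 20 libraries.

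The members were among the abundant messages of these cells. Together they made up 2.76% to 5.00% of all FPKM in the pulldowns and 2.63% to 4.45% in the inputs. Levels per length ranged widely: 3 members lay at or below 2 FPKM, 3 between 2 and 10, 25 between 10 and 100, 41 between 100 and 300, and 8 above 300 FPKM. The highest member of complex IV was Cox4i1, the common form of the largest nuclear-encoded subunit, at 709, 1033 and 1626 FPKM (lowest, median and highest of 16 pulldowns). Atp5b, the catalytic beta subunit, led complex V at 734, 802 and 1131 FPKM. Uqcr11 had the highest mean of complex III at 150, 259 and 573 FPKM, close to Uqcrh at 178, 281 and 421 FPKM, and Ndufb9, of the membrane arm, led complex I at 166, 260 and 404 FPKM. In complex II the means of Sdhb, the iron-sulfur subunit, and Sdha were close (198 and 197 FPKM), with 147, 199 and 287 FPKM for Sdhb and 134, 205 and 224 FPKM for Sdha. Uqcr11, a short transcript of 445 bases, varied far more among the pulldowns, for its level, than Atp5b at 1916 bases.

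Higher in the pulldowns than in the inputs were 15 of 35 genes of complex I, 4 of 4 of complex II, 6 of 9 of complex III and 8 of 15 of complex V, and 0 of the 11 common subunits of complex IV. Of 79 members tested, 37 were higher in the pulldowns and 5 lower, at a Benjamini-Hochberg adjusted p below 0.05 from limma over 12070 genes. The background was 26.4% of all tested genes called higher and 50.7% called lower. Members had to exceed 1 FPKM in the pulldowns alone, but the genes of the background over pulldowns and inputs together. This favours higher calls and a higher median among the members. Of the 6 rows left out, Cox8c was at 0 and the others had lower means in the pulldowns than in the inputs. Cox6a2 was at 0.54 FPKM against 11.2 in the inputs, and Ndufa4l2 at 0.24 against 2.32. The median log2 fold change of the members was 0.34, against -0.31 over all genes and 0.02 over the 972 genes with transcripts under 1000 bases. When libraries were scaled to a common median ratio, which moved the median of all genes to 0.00, 55 members were higher and 0 lower with a median of 0.69, beside a background of 37.6% higher and 38.3% lower. With this scaling 59 of 79 members had an unadjusted p under 0.05, all of them higher. Of all genes 77.3% had one, in either direction, a share near that of the members. With quantile normalization 41 members were higher and 9 lower, beside 4646 higher and 4638 lower of all 12070 genes.

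**Figure D1:**
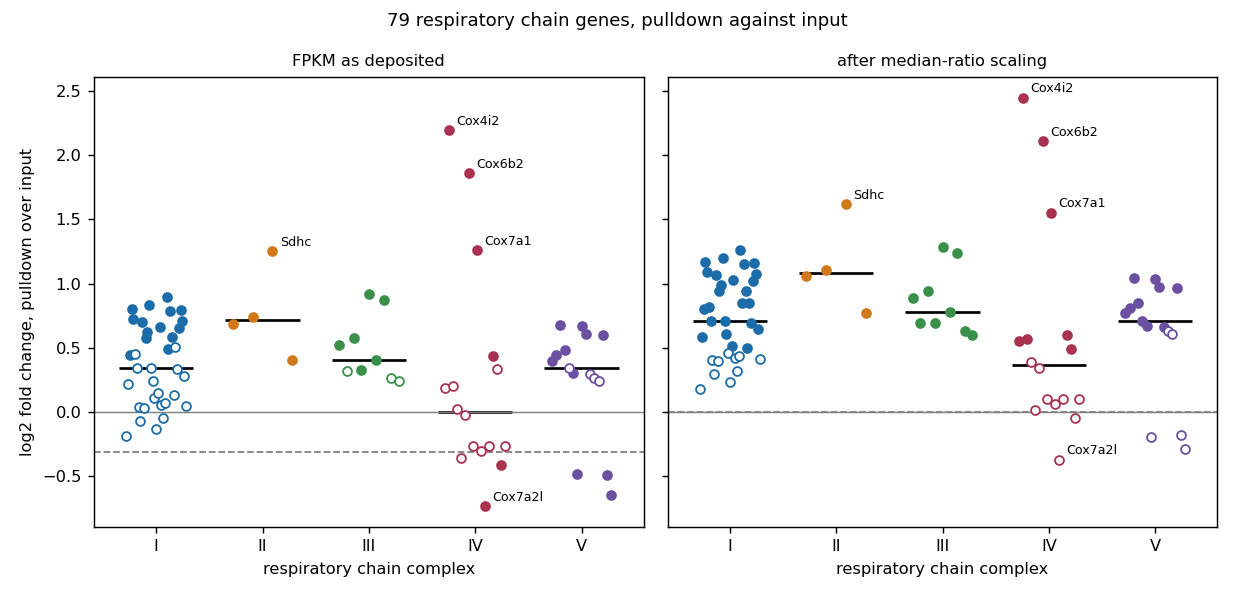
Log2 fold change of pulldown over input for each member by complex, from FPKM as deposited (left) and after median-ratio scaling (right). Filled points passed an adjusted p of 0.05, open points did not, black bars are medians of a complex and the dashed line is the median of all tested genes; complexes I, II, III and V sit mostly above that line, and Cox4i2, Cox6b2 and Cox7a1 stand above the other genes of complex IV.

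Complex II was higher as a whole. All 4 genes passed, from Sdhd, a membrane anchor, at 0.41 ± 0.09 (log2 fold change ± SE) to Sdhc, the other membrane anchor, at 1.25 ± 0.11 (adjusted p = 2.66e-09). Sdhc was at 138, 176 and 237 FPKM (lowest, median and highest of 16 pulldowns). In the inputs it was at 51.6 (NR), 112 (DR), 61.1 (dark10), 72.2 (contralateral) and 87.5 FPKM (ipsilateral), so that every pulldown lay above every input. The share of all genes separated in this way was not computed, here or for the genes and complexes below. The flavoprotein Sdha followed at 0.69 ± 0.10 and Sdhb at 0.74 ± 0.15. The 4 genes stayed called in each of 30 alternative fits.

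Complex III was close behind, with 6 of 9 genes higher and a median of 0.41. The core protein Uqcrc1 rose most, by 0.92 ± 0.12 (adjusted p = 4.58e-07), at 255 ± 36.4 FPKM (SD, n = 16 pulldowns) against 134 ± 22.1 FPKM (SD, n = 5 inputs). Uqcrfs1, the Rieske iron-sulfur protein, rose by 0.87 ± 0.11, and Cyc1, cytochrome c1, by 0.52 ± 0.13. Uqcrq, Uqcrh and Uqcr10, small accessory subunits, gave 0.24, 0.26 and 0.32 without passing. The calls for Uqcr11 and Uqcrb held in 18 and 16 of the 30 alternatives.

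In complex I, 15 of 35 genes were higher and 0 lower, with a median of 0.35. Among the 6 genes of the quinone-binding module 5 passed, with a median of 0.62, among them Ndufs8 (0.80 ± 0.18), Ndufs7 (0.66 ± 0.18) and Ndufa9 (0.58 ± 0.12). Of the 10 genes of the NADH-oxidizing module 4 passed (median 0.39), among them Ndufv1, the NADH-binding subunit, at 0.71 ± 0.12, and Ndufs1 at 0.49 ± 0.15. Of the 19 membrane arm genes 6 passed (median 0.24), from Ndufa11 at 0.45 ± 0.18 to Ndufc2 at 0.90 ± 0.14, and Ndufa1 lay lowest at -0.19 ± 0.21. The share of the membrane arm that passed is near the 26.4% of all tested genes called higher. Ndufc2 was at 120, 174 and 247 FPKM in the pulldowns (lowest, median and highest), against 69.5 (NR), 131 (DR), 85.0 (dark10), 86.3 (contralateral) and 100 FPKM (ipsilateral) in the inputs. Only the DR input reached into the range of the pulldowns. Whether the 3 parts differ from one another was not tested.

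In complex V, 4 of the 5 genes of the catalytic head and central stalk passed: Atp5c1, the gamma subunit of the rotor (0.68 ± 0.11), Atp5d (0.48 ± 0.16), Atp5b (0.44 ± 0.10) and Atp5a1, the alpha subunit (0.40 ± 0.09). In the peripheral stalk 3 of 4 passed (Atp5h, Atp5o and Atp5f1, 0.31 to 0.61). Quantile normalization turned Atp5b to -0.25, a call in the other direction, and brought Atp5a1 to 0.06, with 5 of the 15 genes called higher and 2 lower. Of the genes for subunit c, the proton-carrying ring, Atp5g3 rose by 0.67 ± 0.13 and carried most of the listed level, at 313, 449.7 and 587 FPKM (lowest, median and highest of the pulldowns). Other annotated genes share 88.2% of the transcript of Atp5g2, which was near 0, 14.4% of that of Atp5g1 and 0% of that of Atp5g3. How reads that fit several places were counted is not given, so the split between these genes is uncertain. Atp5g1 fell by 0.48 ± 0.18, at 0.9, 1.85 and 6.3 FPKM, against 1.9 (NR), 4.4 (DR), 2.4 (dark10), 4.1 (contralateral) and 5.1 FPKM (ipsilateral) in the inputs. Its ranges overlap and its call was lost with either scaling. Atp5s (-0.49 ± 0.16) and Atp5sl (-0.64 ± 0.12) share the name but not the enzyme's core: the human counterpart of Atp5sl is an assembly factor of complex I. Both fell as deposited and neither passed after median-ratio scaling, which gave -0.18 and -0.29.

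Complex IV stood apart. The 11 common subunits had a median of -0.26, with 0 higher and 1 lower, which scaling to the median ratio moved to 0.11, with 3 called higher and 0 lower. Quantile normalization moved it the other way, to -0.39, with 1 called higher and 6 lower, Cox4i1 lowest at -1.40. The scaled median of the complex as a whole was 0.37, against 0.71 to 1.08 for the other complexes. Cox8a, the only common subunit called, fell by 0.41 ± 0.18 (adjusted p = 0.0418), a call that held in 16 of 30 alternatives. The same is visible without any scaling between libraries. Of the members' summed FPKM, complex IV took 22.3% to 25.6% in the 16 pulldowns and 29.5%, 32.4%, 30.7%, 31.9% and 32.6% in the NR, DR, dark10, contralateral and ipsilateral inputs. No pulldown reached the lowest input. Complex III took 12.3% to 13.2% in pulldowns and 10.7% to 11.3% in inputs, again without overlap, while the shares of complexes I, II and V overlapped.

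Within complex IV, the less common isoforms went the other way. Cox4i2 was at 7.4, 13.2 and 18.5 FPKM (lowest, median and highest of 16 pulldowns) and at 0.9 (NR), 3.6 (DR), 1.3 (dark10), 1.8 (contralateral) and 2.9 FPKM (ipsilateral) in the inputs. Every pulldown lay above every input, and the log2 fold change was 2.20 ± 0.19 (adjusted p = 1.55e-09). Cox6b2 was at 5.3, 9.1 and 18.0 FPKM in the pulldowns and at 1.3, 3.7, 1.7, 1.6 and 1.7 FPKM in the same order of inputs, again without overlap, a change of 1.86 ± 0.21 (adjusted p = 9.87e-08). Cox7a1 was at 4.9, 8.75 and 18.3 FPKM against 2.9, 4.2, 3.4, 2.6 and 3.6 FPKM, also without overlap, a change of 1.26 ± 0.19 (adjusted p = 4.21e-06). All 3 remained called in each of 30 alternatives. Cox7b2 passed at 0.44 ± 0.20 (adjusted p = 0.0491), and its call held in 11 of 29 alternatives. Its pulldown mean was 1.51 FPKM and its input mean 0.82 FPKM, so it passed the limit of 1 FPKM through the pulldowns, which favours a higher call. Cox8b, at 0.3 to 3.0 FPKM in the pulldowns and 0 to 0.5 FPKM in the inputs, was too low over all libraries to enter this test.

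Not every minor isoform rose. Cox6a2, below the limit for members, was at 0.2, 0.5 and 1.3 FPKM in the pulldowns and at 4.4 (NR), 12.2 (DR), 9.2 (dark10), 11.7 (contralateral) and 18.3 FPKM (ipsilateral) in the inputs, a log2 fold change of -2.89 ± 0.17 (adjusted p = 4.94e-12). Its pulldown mean was 0.54 FPKM and its input mean 11.2 FPKM, so it entered this test through the inputs, which favours a lower call. Ndufa4l2, a relative of Ndufa4 known as a target of the hypoxia response, was at 0 to 0.9 FPKM in the pulldowns and at 1.3 to 2.9 FPKM in the inputs. Cox7a2l, which encodes a factor joining complexes III and IV into supercomplexes, fell by 0.73 ± 0.16 (adjusted p = 2.70e-04), from 62.9 ± 23.1 FPKM (SD, n = 5) to 36.5 ± 6.74 FPKM (SD, n = 16). After median-ratio scaling its value was -0.37 and it no longer passed.

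Ratios of isoforms within a library need no scaling and showed the same split. Cox4i2 was 0.82% to 1.41% of Cox4i1 in the pulldowns and 0.15% to 0.27% in the inputs. Cox6b2 was 1.75% to 3.997% of Cox6b1 in the pulldowns and 0.30% to 0.64% in the inputs, and Cox7a1 was 4.18% to 10.7% of Cox7a2 against 1.51% to 2.88%. In the other direction, Cox6a2 was 0.05% to 0.24% of Cox6a1 in the pulldowns and 1.42% to 2.67% in the inputs, and Ndufa4l2 was 0% to 0.26% of Ndufa4 against 0.55% to 0.78%. None of these 5 ratios overlapped between pulldown and input, while the other 3 computed did. How often ratios of other genes separate without overlap was not computed. Of all tested genes 26.4% were called higher and 50.7% lower in the pulldowns. Cox8b was 0.08% to 0.54% of Cox8a in the pulldowns against 0% to 0.08%, Atp5g1 was 0.23% to 1.22% of Atp5g3 against 0.86% to 1.71%, and Cox7a2l was 18.1% to 36.0% of Cox7a2 against 29.1% to 43.7%. The common form made up most of the listed FPKM of each pair in both kinds of library.

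**Figure D2:**
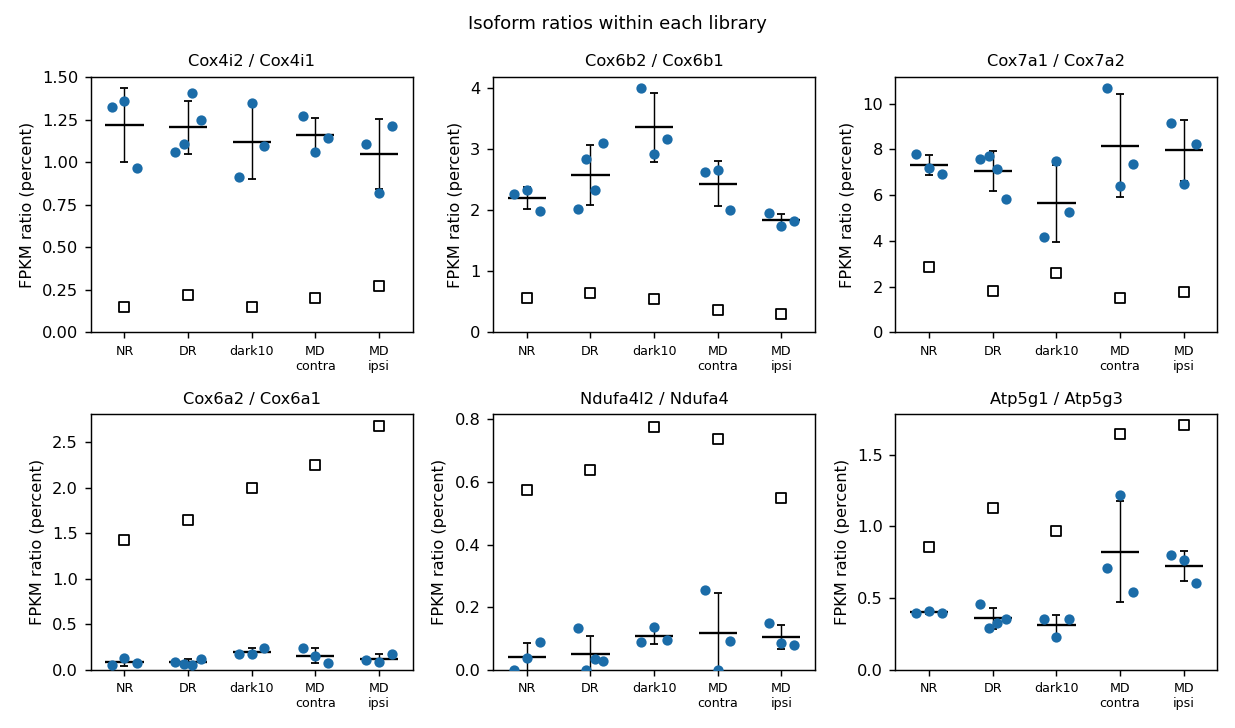
FPKM of a minor isoform as a percentage of the major one in each library, by rearing group. Filled points are pulldown libraries with their mean (bar) and SD (error bar, drawn down to 0), open squares the input of the group; the 3 upper panels have all pulldowns above all inputs, the first 2 lower panels all below.

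Cox4i2 is also known from mural cells of brain vessels, and the markers of endothelial and mural cells were read beside it. Of the 7 markers listed 4 were high enough to test. The endothelial genes Cldn5 and Pecam1 and the pericyte gene Rgs5 were lower (log2 fold changes of -2.20, -1.32 and -1.795), and Pdgfrb, a receptor of mural cells, rose by 1.57, from 4.34 to 15.5 FPKM. Their sum was 11.4 to 41.4 FPKM in the pulldowns and 27.7 to 42.5 FPKM in the inputs, with none at 0 in all libraries of a group. For Cox6a2 the inhibitory neuron markers were read: Gad1, of GABA synthesis, had a log2 fold change of -3.95 and Pvalb, a calcium buffer of fast-spiking interneurons, one of -4.29, and both passed as lower. The part of these cells in the isoform values was not tested.

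Promoters of 4 complex IV genes are given because their values differ: Cox6a1 and Cox6b1, common forms with pulldown to input values of -0.35 and -0.02, and Cox6b2 and Cox7a1, which rose. Each is the 250 bases before the transcript start from RefSeq on GRCm38.p6, 5′ to 3′ on the gene's strand. Cox6a1 lies at chr5:115348959-115349208 (minus strand), Cox6b1 at chr7:30626115-30626364 (minus), Cox6b2 at chr7:4753095-4753344 (minus) and Cox7a1 at chr7:30183921-30184170 (plus). Capitals mark matches on either strand to GCGCATGCG, the core of the NRF1 motif, and CCGGAAG, the core of the ETS motif.
Cox6a1: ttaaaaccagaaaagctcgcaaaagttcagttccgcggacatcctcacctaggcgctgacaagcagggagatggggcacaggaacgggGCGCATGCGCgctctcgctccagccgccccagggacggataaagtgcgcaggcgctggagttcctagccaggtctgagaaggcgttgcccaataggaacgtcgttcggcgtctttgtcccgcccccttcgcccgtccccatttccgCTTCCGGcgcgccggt
Cox6b1: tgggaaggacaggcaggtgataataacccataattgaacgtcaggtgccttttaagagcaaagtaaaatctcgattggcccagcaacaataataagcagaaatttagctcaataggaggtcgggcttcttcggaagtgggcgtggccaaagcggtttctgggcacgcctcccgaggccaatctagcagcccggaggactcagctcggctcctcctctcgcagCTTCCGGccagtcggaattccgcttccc
Cox6b2: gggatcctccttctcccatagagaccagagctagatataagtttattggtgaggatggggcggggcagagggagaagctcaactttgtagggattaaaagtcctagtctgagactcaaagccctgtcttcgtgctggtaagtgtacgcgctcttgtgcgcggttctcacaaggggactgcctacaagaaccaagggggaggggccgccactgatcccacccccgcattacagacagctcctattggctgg
Cox7a1: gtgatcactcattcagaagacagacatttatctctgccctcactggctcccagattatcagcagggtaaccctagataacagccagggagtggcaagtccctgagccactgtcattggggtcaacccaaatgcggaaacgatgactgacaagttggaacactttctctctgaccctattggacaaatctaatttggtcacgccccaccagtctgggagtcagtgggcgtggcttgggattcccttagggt
Cox6a1 holds an NRF1 palindrome, which counts as overlapping matches on both strands, and an ETS match near its start, and Cox6b1 holds an ETS match near its start. The windows of Cox6b2 and Cox7a1 hold neither, nor AAGATGG, the core of the YY1 motif. The motifs do not divide common from minor forms: of the 14 members of complex IV with a window only Cox6a1 and Cox6b1 hold any of the 3, and Cox5a, Cox5b, Cox7a2, Cox7b, Cox7c, Cox8a and Ndufa4 hold none. NRF1, the ETS factor GABPA and YY1 are known regulators of respiratory chain genes. Windows were found for 64 of the 80 members. The NRF1 core was in 6.25% of them and in 3.52% of 8922 tested genes with a window, the ETS core in 17.2% against 15.5%, and the YY1 core in 1.56% against 5.30%. A match is a description of the letters, not a bound site.

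The direction of the pulldown values was read within each group as well, against its single input, which allows no test. The median log2 ratio of the members was 0.74 for NR, 0.44 for contralateral, 0.40 for dark10, 0.30 for ipsilateral and -0.03 for DR. Of 79 members, 74, 68, 66, 59 and 36 were above the input in these groups. The medians of all genes were -0.16, -0.47, -0.23, -0.44 and -0.25 in the same order. Median-ratio scaling changed the order of the members' medians, to 1.01 for contralateral, 0.91 for NR, 0.81 for ipsilateral, 0.63 for dark10 and 0.26 for DR, where 50 of 79 members were then above the input. The DR input was the highest of the inputs, with a summed member level of 15444 FPKM, against 7107 (NR), 9626 (dark10), 11075 (contralateral) and 13493 FPKM (ipsilateral). Members above their input in all 5 groups numbered 37, and 5 were above it in none. Neither these counts nor those by group were made over all genes. In the fit over all groups 36.3% of all genes and 51% of short ones were positive, beside 81% of the members. Unlike all genes, the members had been chosen by their level in the pulldowns alone, which favours positive values. Without the DR input the number called lower was 3 in place of 5.

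Other gene groups of energy metabolism were read against the same background of 26.4% higher and 50.7% lower. Of 19 genes of the tricarboxylic acid cycle 12 were higher and 2 lower (median 0.46), led by Idh2 (3.13 ± 0.10), the mitochondrial NADP isocitrate dehydrogenase, Suclg2 (2.32 ± 0.14), a succinyl-CoA ligase subunit, and Pcx (1.98 ± 0.09), the pyruvate carboxylase known as an astrocyte enzyme. Glycolytic genes gave 8 higher and 3 lower of 15 (median 0.26), led by Aldoc, which is itself an astrocyte marker. The mitochondrial ribosome gave 17 higher and 11 lower of 76 (median 0.03), with Mrpl9 at 0.96 ± 0.09, and its share called higher as deposited is near the background. Complex I assembly factors gave 3 higher and 2 lower of 14 (median 0.01), with Foxred1 at 0.68 ± 0.07 and Ndufaf4 at -0.70 ± 0.11. With median-ratio scaling the mitochondrial ribosome had 46 higher and 2 lower (median 0.38), complex I assembly 7 higher and 2 lower (0.34), and glycolysis 11 higher and 1 lower (0.63). The background was then 37.6% higher and 38.3% lower.

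The remaining lists had medians below 0 as deposited, and all but the cytosolic ribosomal proteins lay above the -0.31 of all genes. Other assembly factors gave 2 higher and 15 lower of 31 (median -0.24), with Lyrm7, a chaperone of the Rieske protein, at -0.96 ± 0.10, and Ttc19, a complex III factor, at -1.35 ± 0.18. Protein import gave 5 higher and 9 lower of 23 (median -0.23), with Tomm20, a receptor of the outer membrane, at -1.78 ± 0.15 and Timm21, of the inner membrane, at 1.17 ± 0.11. Coenzyme Q synthesis gave 4 higher and 6 lower of 13 (median -0.22), with Coq9 at 0.71 ± 0.09. Carriers and mobile partners gave 5 higher and 5 lower of 11 (median -0.26), with the ADP/ATP carrier Slc25a5 at 0.97 ± 0.09. Known regulators gave 1 higher and 5 lower of 11 (median -0.21), with the GABP subunit Gabpb1 at -0.87 ± 0.13. Cytosolic ribosomal proteins, which are short like many members, gave 4 higher and 37 lower of 59, with a median of -0.60. After median-ratio scaling their median was -0.26 and that of the tricarboxylic acid cycle 0.83. Scaling turned other assembly factors to 0.11 (7 higher, 5 lower), protein import to 0.13 (6 higher, 5 lower), regulators to 0.12 (3 higher, 2 lower) and carriers to 0.10 (5 higher, 1 lower), and brought coenzyme Q synthesis to -0.01 (5 higher, 2 lower). These scaled counts stand beside the scaled background of 37.6% higher and 38.3% lower.

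Among the pulldowns, the level of the respiratory chain ranged widely within groups. Summed over all members it was 12025, 13191 and 10091 FPKM in NR replicates 1, 2 and 3. It was 15090, 11339, 13698 and 15025 FPKM in DR replicates 1, 4, 5 and 6, and 15756, 11294 and 10789 FPKM in dark10 replicates 1, 3 and 4. Contralateral replicates 1, 2 and 3 had 16356, 19991 and 10011 FPKM, and ipsilateral replicates 1, 2 and 3 had 16330, 20278 and 11622 FPKM. The monocular groups span the whole range, and libraries with the same number in both hemispheres lie close together. Contralateral replicate 3 and NR replicate 3, with the lowest and second lowest sums, are also libraries with Rn45s below 1000 FPKM. Ipsilateral replicate 3, likewise low in Rn45s, had a higher sum than DR replicate 4 and dark10 replicates 3 and 4. Those had Rn45s of 6953, 4280 and 5466 FPKM. The part of Rn45s in these levels was not tested.

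**Figure D3:**
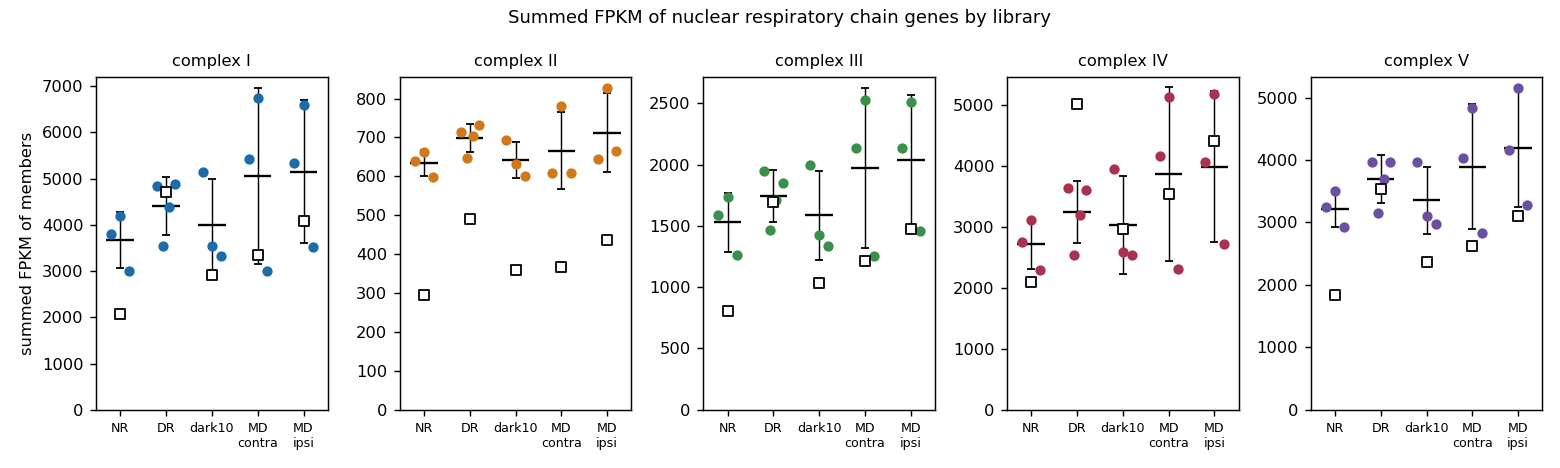
Summed FPKM of the members of each complex by rearing group. Filled points are pulldown libraries with mean (bar) and SD (error bar), open squares the single input of the group; complex II varies from 599 to 829 FPKM in the pulldowns, complex I from 3003 to 6738 FPKM and complex IV from 2295 to 5180 FPKM.

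The spread between replicates was larger for short transcripts. Of the 80 members 52 had transcripts under 1000 bases, a class that held 8.22% of all genes tested with the inputs. Among the 74 members above 10 FPKM, the SD of log2(FPKM + 1) between replicate pulldowns had a median of 0.44 for the 48 short transcripts and 0.23 for the 26 longer ones. Spearman's rho between length and SD across these 74 genes was -0.72 and Pearson's r of log length -0.74, as a description, since the genes share their 16 libraries. For all genes above 10 FPKM the medians were 0.35 (532 short) and 0.25 (4376 longer). The low spread of complex II (median SD 0.18) goes with a median length of 2066 bases, and the higher spread of complex I (0.41) with 704 bases.

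**Figure D4:**
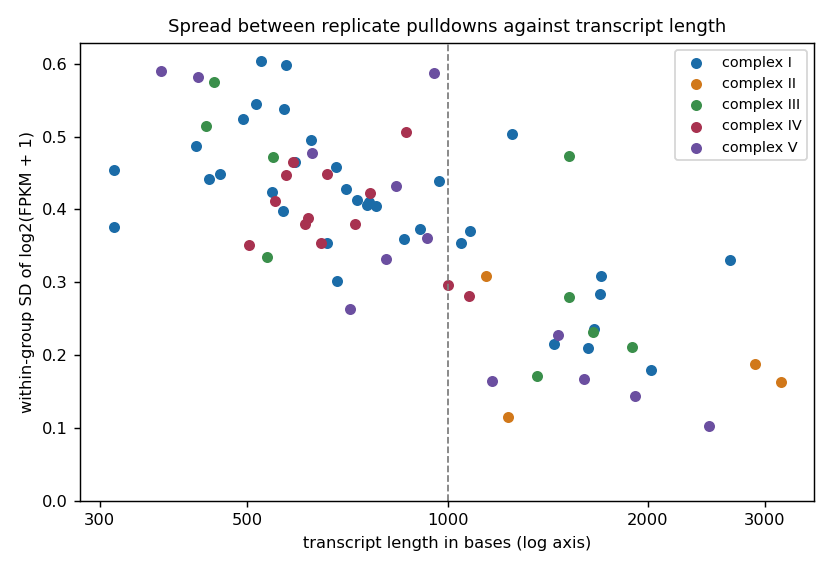
Pooled SD of log2(FPKM + 1) between replicate pulldowns of a group (vertical) against transcript length in bases (horizontal, log axis) for the 74 members above 10 FPKM. The dashed line marks 1000 bases; the median SD is 0.44 to its left and 0.23 to its right.

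Darkness from birth was compared with normal rearing to ask how visual experience bears on astrocyte messages. No member passed the test (0 of 80, background 0.00865%, which is 1 of 11562 genes), and 0 members had an unadjusted p under 0.05. The fold change was positive for 74 of 80 members, with a median log2 fold change of 0.22, against 0.15 for all short transcripts and -0.08 for all genes. Of all short transcripts 73.5% were positive, and of all genes 34.7%. With the replicate number as a block, where NR and DR share only the number 1, the median was 0.30. The block was fitted over all 16 pulldowns, so its number effects came also from the monocular and dark10 groups. An unadjusted p under 0.05 was found for 15 of 80 members, beside 8.89% of all genes, and 0 members passed. The largest value was that of Ndufc1, of the membrane arm, at 58.7, 63.3 and 52.0 FPKM in NR and at 89.6, 59.3, 82.1 and 102 FPKM in DR, 0.49 ± 0.27 with adjusted p = 0.878. DR replicate 4 lay among the NR values. Ndufa3 followed at 0.49 ± 0.37.

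By complex the DR medians were 0.24 (I), 0.15 (II), 0.15 (III), 0.20 (IV) and 0.20 (V). The lowest members were Cox7b2 at -0.15 ± 0.30, Ndufs1 at -0.15 ± 0.24 and Atp5s at -0.14 ± 0.25, and the highest outside complex I were Atp5k (0.46 ± 0.40), Uqcrq (0.42 ± 0.33), Cox6b2 (0.39 ± 0.32) and Sdhc (0.25 ± 0.14). The median was 0.27 for the 52 short members and 0.10 for the 28 longer ones. Neuron markers were at 463 to 1279 FPKM in NR and 283 to 460 FPKM in DR, summed over 14 genes, with 11 of 13 tested lower and none passing. Rn45s was at 10365, 5355 and 142 FPKM in NR and at 6953 to 14292 FPKM in DR. Without the 3 libraries with Rn45s below 1000 FPKM the median of the members was 0.09, and without NR replicate 3 alone also 0.09. The tricarboxylic acid cycle gave a median of -0.04, the mitochondrial ribosome 0.09 and cytosolic ribosomal proteins 0.09, with 0 genes called in each.

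Monocular deprivation was read by setting the hemisphere served mainly by the deprived eye against the other. In the main fit, which did not pair the hemispheres, no member passed (0 of 80, background 0%, 0 of 11562 genes called). In it 0 members had an unadjusted p under 0.05. Its SE values hold the spread between pairs, and fits with the pairs as a block are given below. The median of the members was -0.07 with 12 of 80 positive, beside -0.06 over all genes, and after median-ratio scaling -0.01 with 37 of 80 positive. Of all genes 30.2% were positive as deposited and 47.6% after scaling. Extremes were Cox5a at -0.31 ± 0.27, Uqcrb at -0.30 ± 0.26 and, upward, Cox7c at 0.39 ± 0.22 and Cox6b2 at 0.31 ± 0.34. Medians by complex ran from -0.13 (III and V) to -0.05 (IV).

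Taken pair by pair, the 3 numbered pairs did not do the same. In pair 1, 43 of 80 members were lower contralaterally (median -0.01), in pair 2, 47 of 80 (median -0.04), and in pair 3, 77 of 80 (median -0.21). The medians over all genes were -0.05, -0.14 and 0.00, with 58.8%, 70.4% and 45.6% of all genes lower. After median-ratio scaling 25, 18 and 77 members were lower, with medians of 0.05, 0.13 and -0.26, so that the direction turned in pairs 1 and 2. Members lower in all 3 pairs numbered 30 (37.5%), a pattern that 20.8% of all tested genes showed. With the replicate block the median stayed at -0.07 and 2 of 80 members had an unadjusted p under 0.05, beside 3.37% of all genes. In a fit of these 6 libraries alone with the block, chosen after seeing the data, 13 members did, 2 of them higher, and 0 passed (smallest adjusted p 0.515). Of all genes in that fit 6.2% had an unadjusted p under 0.05. Leaving out contralateral replicate 3 turned the median to 0.25 and leaving out ipsilateral replicate 2 turned it to 0.14, in fits without the block that leave the other library of the pair unmatched.

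The adults kept in darkness were set against the same NR libraries as the dark-reared mice, so the 2 comparisons share their controls. After 10 days of darkness 0 of 80 members differed from NR (background 0.0865%, 10 of 11562 genes), and 0 had an unadjusted p under 0.05. The median was 0.07 with 63 of 80 positive, beside 0.12 for all short transcripts. Of all short transcripts 74.3% were positive, a share near that of the members, and of all genes 52.6%. Cox6b2 had the largest value, at 18.0, 8.8 and 9.3 FPKM against 7.5, 8.9 and 5.3 FPKM in NR, 0.62 ± 0.34, and Cox8b the lowest at -0.42 ± 0.31. The Cox6b2 groups overlap, and dark10 replicate 1 alone is far above. Extremes of the other complexes were Ndufa5 (0.27) and Ndufs5 (-0.25), Sdha (0.07) and Sdhd (-0.07), Uqcr10 (0.16) and Uqcrfs1 (-0.13), and Atp5j2 (0.30) and Atp5g1 (-0.21). The median turned to -0.10 without dark10 replicate 1 and to -0.06 without NR replicate 3. With the replicate block, where the groups share numbers 1 and 3, it was 0.34 and 41 members had an unadjusted p under 0.05, of which 0 passed (smallest adjusted p 0.173). The block was again fitted over all 16 pulldowns, the monocular groups among them, so this count does not rest on pairs of dark10 and NR. Of all genes in that fit 14.3% had an unadjusted p under 0.05. Microglia markers moved in this comparison: 6 of 8 passed as higher, with sums of 60.2 to 117 FPKM in dark10 and 9.1 to 19.5 FPKM in NR, and their part in the members' values was not tested.

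The effect of dark rearing was set directly against the effect of monocular deprivation. The difference of the 2 effects was positive for 76 of 80 members with a median of 0.31, and 0 members passed (background 0%, 0 of 11562 genes) or had an unadjusted p under 0.05. With the replicate block 5 of 80 members had an unadjusted p under 0.05, near the 6.38% of all genes, and 0 passed. The largest difference was that of Ndufa3 (0.52 ± 0.54) and the lowest that of Cox7c (-0.48 ± 0.30). All short transcripts had a median of 0.19 with 74.6% positive, and all genes -0.02 with 47.5% positive.

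**Figure D5:**
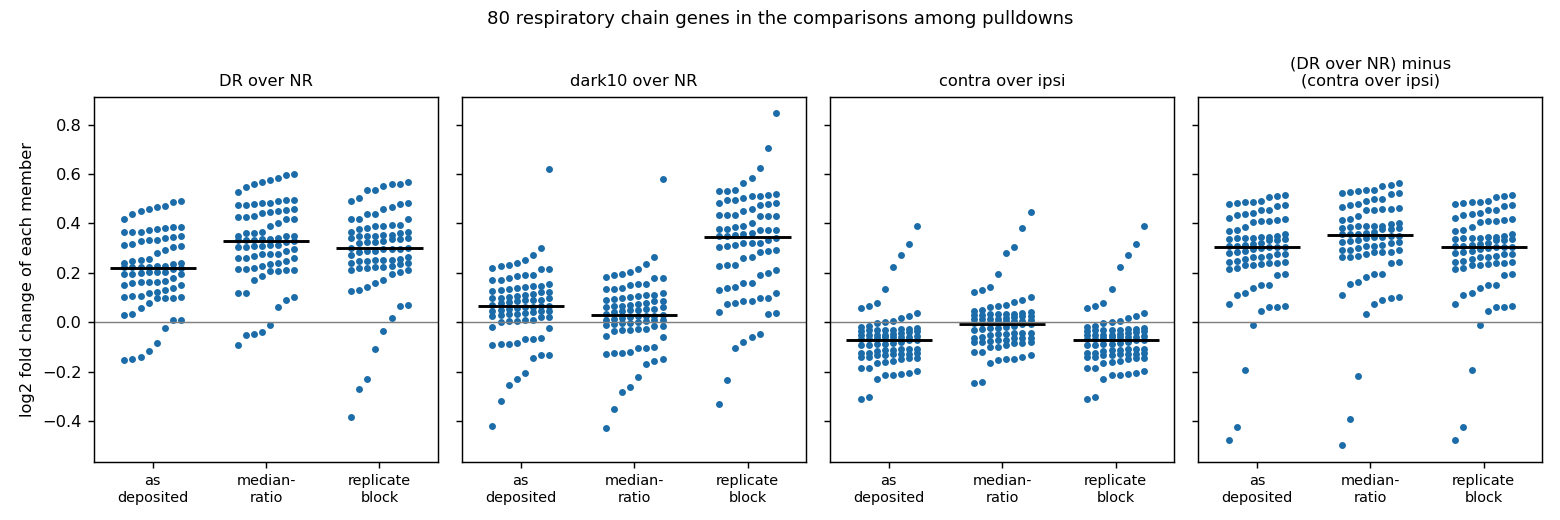
Log2 fold changes of the 80 members (points, spread sideways for visibility) in the comparisons among pulldowns, as deposited, after median-ratio scaling and with the replicate number as a block; bars are medians. DR over NR lies mostly above 0 in all 3 fits, contralateral over ipsilateral near 0, and no point passed the test.

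Among isoforms, Atp5g1 varied over groups in a way that the planned comparisons do not address. It was at 3.1, 6.3 and 1.7 FPKM in the contralateral and 3.9, 4.5 and 2.2 FPKM in the ipsilateral pulldowns. In NR it was at 1.6, 1.9 and 1.5 FPKM, in DR at 2.3, 1.2, 1.6 and 1.9 FPKM and in dark10 at 1.8, 0.9 and 1.3 FPKM. As a share of Atp5g3 it was 0.54% to 1.22% at day 28 and 0.23% to 0.46% in the older groups, without overlap, and the inputs had 1.64% and 1.71% at day 28 against 0.86% to 1.13%. The FPKM of Atp5g1 itself overlapped between these ages, and its values are low beside the rounding to 0.1 FPKM. The pattern was not particular to Atp5g1. Cox7c was at 1.2 to 3.3 FPKM in the pulldowns of day 28 and 0.3 to 1.1 FPKM in the older ones. Cox7a1 had a mean of 13.1 FPKM in both day 28 groups, against 8.1 (NR), 9.2 (DR) and 6.3 FPKM (dark10). These patterns were seen in the values and have no test, and age and manipulation cannot be told apart.

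Near-identical copies limit some levels. Of the 86 rows 11 share at least 50% of their transcript at 97% identity or more with another annotated gene, and how the authors counted reads that fit several places is not given in the sources used here. Atp5g2 (88.2% shared), Atp5l (72.2%) and Cox7c (58.3%) lay below 3 FPKM, although Cox7c is a common subunit of complex IV. Atp5o (92.0%), Ndufs3 (84.1%) and Atp5h (77.6%) lay at 279, 42.5 and 129 FPKM. The part of shared sequence in these levels was not tested. Cox4i2, Cox6b2, Cox7a1 and Sdhc share none.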

How the data were processed

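Ribosome-bound RNA (pulldown) and input RNA of mouse visual cortex were sequenced as poly(A) libraries. The authors deposited 1 table of FPKM values per gene and library, rounded to 0.1 FPKM. Per the submitters' processing notes, the mm10 build and STAR 2.5.1b, HOMER 4.10, CASAVA 1.8.2, DESeq2, R 3.4.3 and FastQC 0.11.2 were used, with no role given there for each. Of 22 labelled samples 21 had a column (16 pulldowns and 5 inputs), DR replicate 2 was not analysed here, and 1 column of another sample was not used. Because FPKM divides by the library total, a change in a few abundant genes shifts all others.

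Values were tested on log2(FPKM + 1) with limma 3.58.1 in R 4.3.3 (trend and robust variance, 2-sided, Benjamini-Hochberg adjustment over all genes tested, threshold 0.05), for genes whose mean in the fitted libraries exceeded 1 FPKM. Log2 fold changes understate the change of low genes. The pulldown against input fit had a term for the group, and the comparisons among pulldowns shared 1 estimate of the spread over 16 libraries, where the plan had counted 17. The fit was tested on simulated data. The labels number biological replicates without saying that they are separate animals, so p-values measure the spread between these samples. Same-numbered contralateral and ipsilateral libraries deviated together from their group means (r of 0.80, 0.79 and 0.90). These numbers were therefore taken to pair the samples in the replicate block, while the main fit left them unpaired. Alternatives were another pseudocount or filter, median-ratio scaling, quantile normalization, leaving out each library, a neuron marker covariate, the replicate block, no group term, inputs against means of the groups, only the groups compared and, added after seeing the data, leaving out the 3 libraries low in Rn45s.

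Any member could be named. Values by library were given for the highest member of each complex and the isoform families, and fold changes for the extremes of each complex. From each comparison list the genes with the smallest p were taken. The members and all lists were chosen with earlier results of these data known. Transcript lengths and positions came from GENCODE vM21 on GRCm38, and 78 members had a position. Shared sequence was found with blastn 2.17.0, and promoter windows came from RefSeq on GRCm38.p6. Depth was estimated from the steps between low FPKM values; 1 read on a member of median length is worth 0.0261 to 0.0633 FPKM.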

Additional observations from a re-analysis of the deposited data

Results flagged for a closer look

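Among 170 groups of 4 or 5 libraries examined gene by gene, 3 had 1 library far from the others, where chance gives about 1 in 20 groups, or 8.5. Cox6b2 was at 3.7 FPKM in the DR input, the highest of 5 inputs, and the same input had the highest summed member level. Sdha was at 194.1 FPKM in DR replicate 1, the lowest of 4, although the other 3 DR pulldowns at 211.2 to 212.4 FPKM differ little from it. Sdhb was at 165.4 FPKM in DR replicate 4, the lowest of 4, the replicate with the lowest summed member level in its group.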

How the results depend on the processing

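Against the inputs, the number of members called lower was 0 with median-ratio scaling, 9 with quantile normalization, 3 without a term for the group and 3 without the DR input. Median-ratio scaling moved the median of all genes from -0.31 to 0.00 and that of the members from 0.34 to 0.69. It moved the medians of complexes II, III and V from 0.71, 0.41 and 0.34 to 1.08, 0.78 and 0.71. The log2 ratio of summed FPKM went from 0.38 to 0.79 (I), 0.79 to 1.17 (II), 0.51 to 0.92 (III) and 0.45 to 0.85 (V), and from -0.10 to 0.31 for complex IV, a change of sign. Leaving out 1 library gave 30 to 41 members called higher, 3 to 6 lower and a median of 0.27 to 0.47.

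Among pulldowns, leaving out 1 library gave 0 called members in every comparison and medians of 0.09 to 0.32 (DR over NR), -0.30 to 0.25 (contralateral over ipsilateral), -0.10 to 0.19 (dark10 over NR) and 0.02 to 0.56 (difference of effects). The contralateral median became 0.25 without contralateral replicate 3 and 0.14 without ipsilateral replicate 2, each leaving the other library of its pair unmatched. The dark10 median became -0.10 without dark10 replicate 1, and -0.055 both without NR replicate 3 and without the 3 libraries low in Rn45s. The causes were not tested. With the replicate block the medians were 0.30, -0.07, 0.34 and 0.31 in the same order, with 0 members called; outside the monocular groups r was 0.43 for NR and DR number 1, 0.22 and -0.08 for NR and dark10 numbers 1 and 3, and 0.48 and 0.57 for DR and dark10 numbers 1 and 4, with fewer than 3 shared numbers in each case, so the numbers were not taken to pair samples there. Of the values for single genes, 568 kept their direction and their side of the threshold and 40 lost the call. Of the counts and medians over the members, 298 values stayed the same, 12 moved and 6 reversed. FPKM rounded to 0.1 limits what can be read for members near 1 FPKM, and 1 input per group allows no test within a group.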
